A study of Mus musculus with 9 samples.

Results

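The genes of 8 myeloid pattern-recognition receptors were followed through neutrophils of tumor-bearing mice, namely the C-type lectin receptors Clec4a2, Clec12a, Clec5a, Clec4d, Clec7a, Clec4n and Clec4e, and Olr1, which encodes the lectin-like scavenger receptor LOX-1. The 8 genes were chosen by name and are 8 of 46517 genes listed. All 8 passed the filter on low values, as did 7794 genes in all. RNA was sequenced from neutrophils that had been sorted from bone marrow, blood and the tumor of C57BL/6 mice on day 27 after orthotopic transplantation (OT) of pancreatic ductal adenocarcinoma cells. The transplanted line was derived from KPC tumors, expressed luciferase and was injected into the pancreas. The sort kept live CD45+ cells without lineage markers that were Ly6G+ and Ly6C+. Every library held cells pooled from 5 mice, and the 3 libraries of each compartment came from separate experiments. The paper describes the neutrophils of the 3 compartments as taken from the same mice. The labels do not say which libraries share mice. The bone marrow cells are labeled Ly6G.hi, whereas the blood and tumor cells are labeled Ly6G+. Every mouse in these groups carried a tumor, so the comparisons are between compartments and not between mice with and without tumor.

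C-type lectin receptors sit on the surface of neutrophils, monocytes, macrophages and dendritic cells and bind sugars, lipids and other ligands of microbes or of dying cells. Activating members signal through an ITAM-like motif of their own or through the adaptors FcRγ (Fcer1g) and DAP12 (Tyrobp) to the kinase SYK and then to CARD9, BCL10 and MALT1, which lead to NF-κB and to cytokine transcription. Inhibitory members carry an ITIM in the cytoplasmic tail and recruit the phosphatases SHP-1 (Ptpn6) and SHP-2 (Ptpn11). LOX-1 has a lectin-like fold but acts as a scavenger receptor for oxidized low-density lipoprotein, and in tumor immunology it is known as a surface marker of human immunosuppressive neutrophils.

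All 8 genes lie on chromosome 6 (GRCm38, GENCODE M21). Clec4a2 (chr6:123106428-123143999, plus strand), Clec4n (chr6:123229843-123247021, plus), Clec4d (chr6:123262111-123275265, plus) and Clec4e (chr6:123281789-123289870, minus) make up one cluster. Clec12a (chr6:129342691-129365303, plus), Clec7a (chr6:129461591-129472779, minus) and Olr1 (chr6:129485244-129507165, minus) lie together in a second one. Clec5a (chr6:40574894-40585821, minus) stands apart. Of the 8, Clec4a2 was the one that overlapped another annotated gene, the pseudogene Gm44132 inside its span, to which 0 to 1 reads were assigned per library.

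Between 4580807 and 7949367 reads per library were recovered from the deposited values, and each of the 8 genes had 15 to 20027 reads per library. Values are log2 FPKM (fragments scaled to gene length and library size) as the authors calculated them, in which the library sizes had been multiplied by 0.80 to 0.88 in bone marrow and blood and by 1.09 to 1.22 in tumor. With plain read totals in place of this scaling, the median log2 fold change of all tested genes moved from -0.17 to 0.28 for tumor against blood and from -0.21 to 0.25 for tumor against bone marrow. Between blood and bone marrow it stayed at -0.04. The split of calls then turned from 2194 higher and 2686 lower to 2923 higher and 1898 lower in tumor against blood, and from 1745 higher and 2566 lower to 2601 higher and 1634 lower in tumor against bone marrow. The 10 neutrophil markers (Ly6g, S100a8, S100a9, Csf3r, Cxcr2, Retnlg, Mmp8, Mmp9, Camp, Ltf) had reads in every compartment, and summed to 76184 ± 1116 RPM (reads scaled to the library's total) in bone marrow against 33323 ± 315 in blood and 14770 ± 1624 in the tumor libraries (SD, n = 3). Not every marker had this order, since Csf3r and Cxcr2 had the most reads in blood. Csf3r had 52750 to 72754 there against 13802 to 18048 in bone marrow and 17234 to 22928 in tumor. Cxcr2 had 27073 to 46509 in blood against 18992 to 21428 in bone marrow and 9497 to 12093 in tumor. Ltf and Camp had fewer reads in blood (2624 to 2846 and 88 to 99) than in tumor (16196 to 26540 and 386 to 847). The tumor libraries also held RNA of other cells, with 2404 to 5167 RPM for 6 epithelial markers, 1096 to 1350 for 6 fibroblast markers and 593 to 2705 for 6 acinar markers. Markers of neutrophil precursors (Elane, Mpo, Prtn3, Ctsg, Mki67, Top2a) summed to 1280 to 1926 RPM in bone marrow. Blood had 27.7 to 38.4 RPM of them and tumor 96.1 to 171. Most of the tumor sum came from Mki67 (237 to 371 reads per library) and Top2a (347 to 639). Elane, Mpo, Prtn3 and Ctsg each had 0 to 43 reads per library in tumor and 0 to 29 in blood. The sum in tumor is therefore not read as a measure of neutrophil precursors there. The part of precursors and of other cells in the differences of the 8 genes between compartments was not tested. In bulk RNA, fewer expressing cells and less RNA per cell cannot be told apart.

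The 8 genes did not move as a group. In tumor against blood 1 of 8 was higher (Olr1) and 4 were lower (Clec4a2, Clec12a, Clec4d, Clec7a) at an adjusted p under 0.05 in limma, beside 28.1% of all tested genes called higher and 34.5% called lower. Against bone marrow, 4 were higher in tumor (Clec4e, Clec4n, Clec7a, Olr1) and 3 were lower (Clec4a2, Clec5a, Clec12a), beside 22.4% and 32.9% of all tested genes. In blood against bone marrow 3 were higher (Clec4d, Clec4n, Clec7a) and 4 were lower (Clec4a2, Clec5a, Clec12a, Olr1), beside 20.6% and 23.6%. With 8 genes and so many others called, these counts are not read as a result about the receptors as a set. The 3 comparisons share libraries, so they are not independent of each other. With 3 libraries against 3, the exact two-sided permutation test of a single gene gave p = 0.1 wherever the compartments did not overlap, the smallest p it allows.

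**Figure D1:**
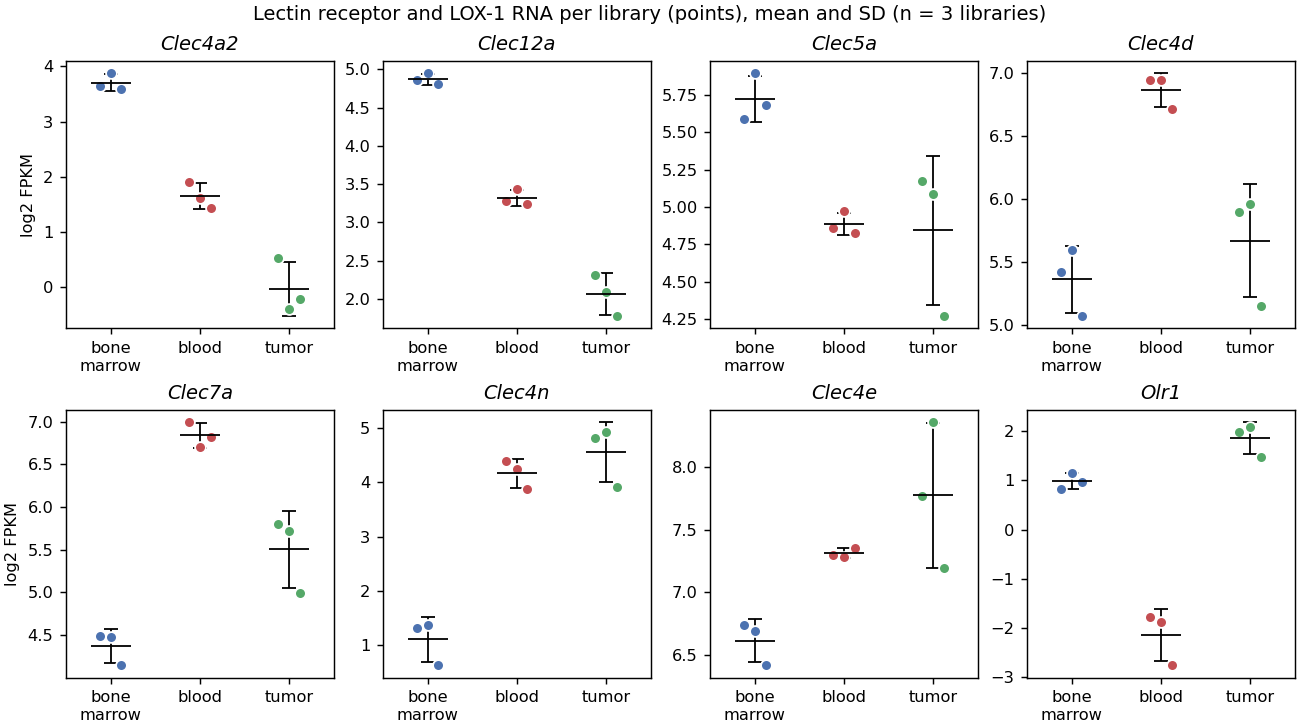
Log2 FPKM of each receptor gene (vertical axis, its range set per gene) in bone marrow, blood and tumor neutrophils. Points are libraries, horizontal lines the mean and bars the SD (n = 3). Clec4a2 and Clec12a step down from bone marrow to blood to tumor, Clec4d and Clec7a peak in blood, and Olr1 is lowest in blood.

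The 2 inhibitory receptors were lower at each step from bone marrow to blood to tumor. Clec4a2, which encodes the ITIM receptor DCIR, measured 3.65, 3.88 and 3.59 log2 FPKM in the bone marrow libraries, 1.90, 1.62 and 1.44 in blood and 0.53, -0.41 and -0.23 in tumor. Its compartments did not overlap in any pair. Clec4a2 fell by 2.05 ± 0.25 (log2, SE) from bone marrow to blood (adjusted p = 0.000505) and was lower by a further 1.69 ± 0.25 in tumor (adjusted p = 0.000623), so that tumor neutrophils held 13.3-fold less than bone marrow neutrophils (adjusted p = 1.37e-05). Reads on Clec4a2 numbered 2999 to 3144 per library in bone marrow and 214 to 336 in tumor.

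Clec12a encodes the ITIM receptor MICL, which recognizes uric acid crystals and dead cells. It measured 4.86, 4.95 and 4.80 log2 FPKM in bone marrow, 3.28, 3.44 and 3.25 in blood and 2.32, 2.09 and 1.77 in tumor. Here too no library of one compartment reached the values of another. The difference between blood and bone marrow was -1.55 ± 0.14 (adjusted p = 0.000126), that between tumor and blood -1.26 ± 0.14 (adjusted p = 0.000134) and that between tumor and bone marrow -2.81 ± 0.14, or 7.01-fold (adjusted p = 4.03e-06). With plain read totals, the difference between tumor and blood was -0.81 for Clec12a and -1.24 for Clec4a2, and both were still called. With a pseudocount of 1, that of Clec4a2 was -1.06. Across the 9 libraries Clec4a2 and Clec12a had a Pearson r of 0.991, the highest of all pairs among the 8. The summed neutrophil markers also stepped down from bone marrow to blood to tumor, and the precursor markers were highest in bone marrow. The part of either in the fall of Clec4a2 and Clec12a was not tested.

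Because Clec4a2 and Clec12a lie in different clusters on the chromosome and moved together, their promoters are shown beside each other. Each sequence covers the 250 bases before the RefSeq transcription start (GRCm38.p6, 5′ to 3′ on the strand of the gene). Capitals mark matches, on either strand, to the letters GAGGAA (the core of ETS factor sites such as PU.1), TTGCNNAA (C/EBP), TGANTCA (AP-1), TTCNNNGAA (STAT), ACGTG or GCGTG (hypoxia response), or GGGNNNNNCC (NF-κB). The Clec4a2 window is chr6:123122440-123122689 and the Clec12a window chr6:129349994-129350243, both on the plus strand. Each lies inside the longer gene of the GENCODE annotation.
Clec4a2: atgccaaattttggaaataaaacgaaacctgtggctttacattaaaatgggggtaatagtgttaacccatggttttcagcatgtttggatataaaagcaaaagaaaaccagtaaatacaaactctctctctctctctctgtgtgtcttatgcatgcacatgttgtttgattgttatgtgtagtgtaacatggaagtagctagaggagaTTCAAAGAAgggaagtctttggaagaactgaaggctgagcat
Clec12a: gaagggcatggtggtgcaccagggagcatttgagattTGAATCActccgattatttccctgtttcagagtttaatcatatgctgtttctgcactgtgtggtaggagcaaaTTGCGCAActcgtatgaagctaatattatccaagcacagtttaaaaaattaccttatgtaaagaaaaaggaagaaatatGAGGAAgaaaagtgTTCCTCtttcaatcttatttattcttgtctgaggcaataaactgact
The Clec4a2 window held 1 STAT match, starting at -42 from the start site, a motif found in 7.02% of the same windows of all 32851 promoter entries. In the Clec12a window stood ETS matches at -61 and -47, a palindromic C/EBP match at -140 and an AP-1 match at -213. ETS letters were found in 23.3% of promoter entries, C/EBP letters in 9.56% and AP-1 letters in 6.75%. The windows shared no motif of those searched.

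Clec4d and Clec7a, which code for activating receptors, were highest in blood. Clec7a encodes dectin-1, the β-glucan receptor that signals through its own ITAM-like motif. It measured 4.49, 4.47 and 4.15 log2 FPKM in bone marrow, 6.99, 6.71 and 6.82 in blood and 5.80, 5.72 and 4.99 in tumor, and no compartments overlapped. Clec7a rose by 2.47 ± 0.22 from bone marrow to blood, or 5.54-fold (adjusted p = 0.000113), and was 2.53-fold lower in tumor than in blood (log2 fold change -1.34 ± 0.22, adjusted p = 0.00101). Tumor neutrophils still had 2.19-fold more Clec7a than those of bone marrow (adjusted p = 0.00297).

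Clec4d encodes MCL, also called dectin-3, an FcRγ-coupled partner of Mincle in the recognition of mycobacterial glycolipids. Its values were 5.42, 5.59 and 5.07 log2 FPKM in bone marrow, 6.94, 6.94 and 6.71 in blood and 5.90, 5.96 and 5.15 in tumor. The blood libraries stood above all others, while tumor and bone marrow overlapped. In RPM, by plain totals, tumor (571 to 895) lay above bone marrow (390 to 506). Clec4d was 2.83-fold higher in blood than in bone marrow (1.5 ± 0.23, adjusted p = 0.00151) and 2.29-fold lower in tumor than in blood (-1.19 ± 0.23, adjusted p = 0.00245). Tumor and bone marrow were 0.31 apart, with a 95% interval from -0.23 to 0.84 (adjusted p = 0.295). This difference passed the threshold with plain read totals (0.76, adjusted p = 0.00964) and without tumor replicate 3 (0.57, adjusted p = 0.0233). It shrank to 0.16 without bone marrow replicate 3, and leaving out tumor replicate 2 or 1 gave 0.16 or 0.19. Tumor replicate 3 was the lowest of the tumor libraries in 7 of the 8 genes, the exception being Clec4a2. It also held the most RNA of other cells, with 5167 RPM of epithelial markers against 3149 and 2404 in tumor replicates 1 and 2, and 2705 RPM of acinar markers against 878 and 593. The part of this in its low values was not tested. With plain totals, the differences between tumor and blood were -0.75 for Clec4d and -0.89 for Clec7a, both still called.

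Markers of macrophages and monocytes peaked in blood as well. All 14 genes of this list had reads in bone marrow and tumor and 13 in blood, with Ms4a7 at 0 in all 3 blood libraries, and they summed to 1321 to 1529 RPM in blood against 487 to 541 in bone marrow and 522 to 652 in tumor. Most of this came from Csf1r, Adgre1 and Apoe, while the complement gene C1qa had 3 to 12 reads per library in blood. Dendritic cell markers summed to 21.8 to 38.6, 103 to 134 and 47.2 to 61.6 RPM. The part of such cells in the blood levels of Clec4d and Clec7a was not tested.

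The promoters of this pair, which had an r of 0.947 over the 9 libraries, are shown for the same reason, with the same letters in capitals. The Clec4d window is chr6:123261857-123262106 on the plus strand, and that of Clec7a is chr6:129472780-129473029 on the minus strand, the first of 2 entries for this gene.
Clec4d: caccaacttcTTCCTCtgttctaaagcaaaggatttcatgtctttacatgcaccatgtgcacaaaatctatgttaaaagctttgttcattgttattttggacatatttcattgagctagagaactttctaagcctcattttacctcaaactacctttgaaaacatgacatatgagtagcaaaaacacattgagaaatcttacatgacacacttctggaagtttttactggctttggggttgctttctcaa
Clec7a: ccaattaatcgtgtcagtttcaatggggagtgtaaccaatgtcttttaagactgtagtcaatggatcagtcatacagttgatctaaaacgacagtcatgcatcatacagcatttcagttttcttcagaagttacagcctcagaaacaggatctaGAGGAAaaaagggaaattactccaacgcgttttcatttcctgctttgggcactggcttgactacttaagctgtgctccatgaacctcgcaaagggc
Each window held 1 match, to the ETS letters, at -240 in Clec4d and at -96 in Clec7a. ETS letters, found in 23.3% of promoter entries, also stood in the windows of Clec4e, Clec5a, Clec12a and Olr1, so they do not set this pair apart.

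Clec4n, which encodes the α-mannan receptor dectin-2, was low in bone marrow and high in both blood and tumor. It measured 1.32, 1.36 and 0.62 log2 FPKM in bone marrow, 4.39, 4.25 and 3.88 in blood and 4.81, 4.94 and 3.92 in tumor. Every blood and tumor library lay above every bone marrow library, and blood and tumor overlapped. In RPM, by plain totals, they did not, with at most 311 in blood and at least 317 in tumor. The rise was 8.41-fold in blood (3.07 ± 0.31, adjusted p = 0.000222) and 11-fold in tumor (3.46 ± 0.31, adjusted p = 6.12e-05), each against bone marrow. Between tumor and blood the difference was 0.38 ± 0.31, with a 95% interval from -0.35 to 1.12 (adjusted p = 0.317). It passed the threshold with plain read totals (0.83, adjusted p = 0.0287) and with the replicate block (adjusted p = 0.0447). Single libraries moved it both ways, to 0.70 without tumor replicate 3 (adjusted p = 0.0510), and to 0.19, 0.26 and 0.24 without tumor replicate 2, tumor replicate 1 and blood replicate 3.

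Clec4e encodes Mincle, which binds mycobacterial cord factor and the nuclear protein SAP130 of dead cells. Its values were 6.74, 6.69 and 6.42 log2 FPKM in bone marrow, 7.30, 7.28 and 7.36 in blood and 7.77, 8.36 and 7.20 in tumor. The tumor libraries ranged the most, from 9419 to 20027 reads, and in these scaled values the lowest of them fell below all blood libraries. In RPM, by plain totals, that library had 1448 and lay above the 1030 to 1117 of blood. Clec4e was 2.23-fold higher in tumor than in bone marrow (1.16 ± 0.26, adjusted p = 0.00611). Blood lay between, 0.70 ± 0.26 above bone marrow with an interval from 0.10 to 1.30 (adjusted p = 0.0606), and tumor was 0.46 ± 0.26 above blood with an interval from -0.14 to 1.06 (adjusted p = 0.157). The first of these passed the threshold in 7 of 19 alternatives, among them plain read totals (adjusted p = 0.0314), without tumor replicate 2 (0.0130) and without tumor replicate 3 (0.0128). The second passed with plain totals (0.91, adjusted p = 0.00691) and without tumor replicate 3 (0.75, adjusted p = 0.0110), whereas without tumor replicate 2 it was 0.17 (adjusted p = 0.447).

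The Clec4e window, chr6:123289872-123290121 on the minus strand, is shown because it was the one among 7 genes with an entry that held matches to hypoxia response letters. RefSeq had no entry for Clec4n.
Clec4e: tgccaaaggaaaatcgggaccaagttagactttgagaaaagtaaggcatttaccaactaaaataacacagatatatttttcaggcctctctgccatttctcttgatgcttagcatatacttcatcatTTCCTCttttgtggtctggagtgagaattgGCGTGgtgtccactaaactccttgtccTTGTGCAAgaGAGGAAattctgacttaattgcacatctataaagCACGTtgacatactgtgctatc
ACGTG was matched at -22 on the opposite strand and GCGTG at -93, and these letters were found in 16.6% and 28.2% of promoter entries. A C/EBP match stood at -66 and ETS matches at -123 and -56. NF-κB letters, found in 45.8% of entries, were in none of the 7 windows.

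Clec5a encodes MDL-1, a DAP12-coupled activating receptor known for binding dengue virus. It measured 5.59, 5.89 and 5.68 log2 FPKM in bone marrow, 4.86, 4.97 and 4.83 in blood and 5.18, 5.09 and 4.27 in tumor. Bone marrow stood above both other compartments, which overlapped. In RPM, by plain totals, bone marrow (443 to 517) and tumor (257 to 450) overlapped too. Clec5a was 1.78-fold lower in blood (-0.84 ± 0.23, adjusted p = 0.0191) and 1.84-fold lower in tumor (-0.88 ± 0.23, adjusted p = 0.0118) than in bone marrow. The first of these calls was lost without bone marrow replicate 2 (adjusted p = 0.0631), without blood replicate 1 (0.0512) or without blood replicate 3 (0.0552), and the second with plain read totals (-0.43, adjusted p = 0.0912). Between tumor and blood the difference was -0.04, with an interval from -0.57 to 0.48 (adjusted p = 0.882), and it took the other sign, still short of the threshold, with plain totals (0.40) and without tumor replicate 3 (0.24).

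Olr1 followed a course of its own, lowest in blood neutrophils and highest in those of the tumor. It had 261, 275 and 286 reads in the bone marrow libraries, 25, 33 and 15 in blood and 541, 705 and 486 in tumor. In log2 FPKM this was 0.83, 1.15 and 0.98 in bone marrow, -1.78, -1.88 and -2.76 in blood and 1.99, 2.09 and 1.48 in tumor. No 2 compartments overlapped. Olr1 was 16-fold higher in tumor than in blood (4.0 ± 0.30, adjusted p = 2.02e-05) and 8.75-fold lower in blood than in bone marrow (-3.13 ± 0.30, adjusted p = 0.000171). A pseudocount of 1 lowered these to 1.91 and -1.27, both still called. The fold change between tumor and blood was the largest among the 8 genes in that comparison.

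The difference of Olr1 between tumor and bone marrow was smaller, at 1.83-fold (0.87 ± 0.30, adjusted p = 0.0400), and less certain. It missed the threshold when any one of bone marrow replicates 1, 2 or 3 or tumor replicates 1 or 2 was left out, with adjusted p of 0.111, 0.0664, 0.0900, 0.106 and 0.115 in that order. LOX-1 is also known from endothelium. All 6 endothelial markers had reads in tumor and in bone marrow and 4 in blood, and they summed to 91.6 to 130 RPM in tumor, 85.3 to 123 RPM in blood and 11 to 18 RPM in bone marrow. Cdh5, Kdr, Tek and Emcn had 0 to 3 reads per library in bone marrow and blood and 9 to 73 in tumor. Olr1 had 486 to 705 reads per tumor library. Pecam1 reached a similar level there, with 421, 742 and 381 reads, and the blood libraries held 138, 235 and 169 of it. Vwf went the other way, with 315, 602 and 305 reads for blood against 80, 46 and 36 for tumor. The part of endothelial, epithelial or other tumor cells in the Olr1 of tumor libraries was not tested.

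The Olr1 window is chr6:129507166-129507415 on the minus strand.
Olr1: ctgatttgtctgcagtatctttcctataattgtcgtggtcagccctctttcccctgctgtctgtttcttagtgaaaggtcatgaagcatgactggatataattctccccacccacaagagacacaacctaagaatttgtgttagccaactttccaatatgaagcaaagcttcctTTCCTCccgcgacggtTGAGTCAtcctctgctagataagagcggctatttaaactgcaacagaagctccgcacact
It held an ETS match at -76 and an AP-1 match at -60. AP-1 letters stood in this window and in that of Clec12a.

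**Figure D2:**
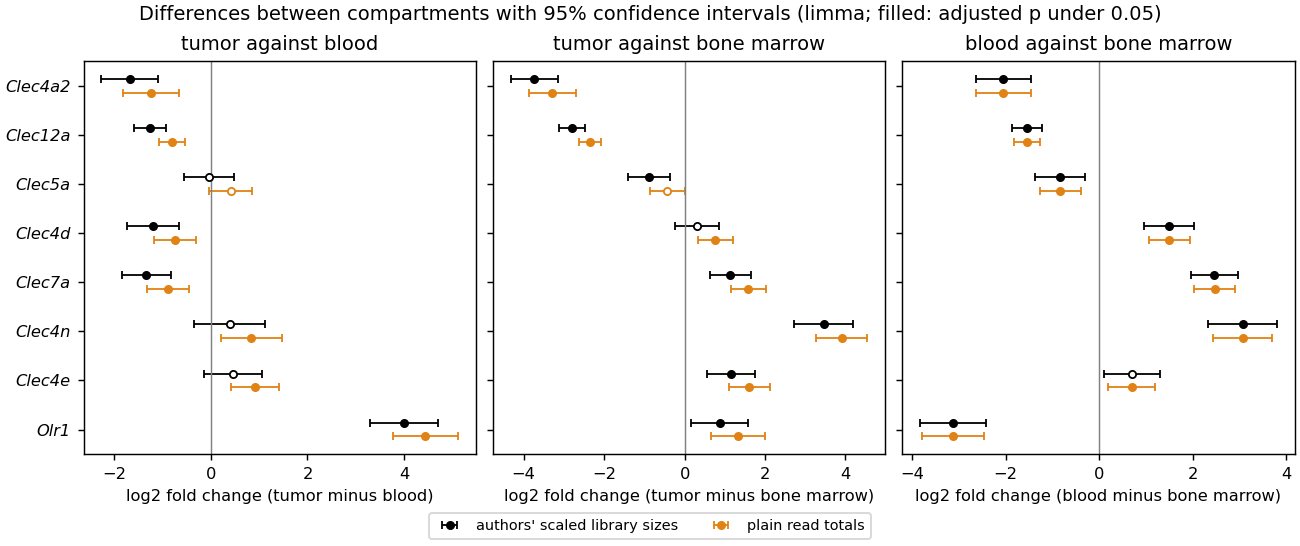
Log2 fold changes (horizontal axes) of the receptor genes (rows) in the 3 comparisons, with 95% confidence intervals from limma. Black marks use the authors' scaled library sizes and orange marks plain read totals, and filled marks have an adjusted p under 0.05. Plain totals move the tumor comparisons to the right, and Clec5a then changes sign in tumor against blood, from -0.04 to 0.40.

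Levels of different genes were compared as exon RPKM (reads scaled to exon length and library total), because the FPKM length was the genomic span of each of the 8 genes. In bone marrow Clec4d led with 286 ± 37.6 (SD, n = 3), followed by Clec4a2, Clec4e and Clec5a at 140 ± 8.29, 134 ± 11.7 and 126 ± 9.95, whose neighbors in this order overlapped. Then came Clec12a at 100.3 ± 0.51, Clec7a at 73.8 ± 7.14, Clec4n at 22.1 ± 5.0 and Olr1 at 10.2 ± 0.89, with no overlap between neighbors. The inhibitory Clec4a2 and Clec12a thus lay within the range of the activating receptors in bone marrow.

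In blood the order was set by the activating receptors, with Clec4d at 809 ± 74.7 exon RPKM, Clec7a at 411 ± 52.1, Clec4e at 218 ± 9.17 and Clec4n at 185 ± 34.7. Clec5a followed at 70.9 ± 2.51, then Clec12a at 34.5 ± 1.81 and Clec4a2 at 34.3 ± 6.32, and Olr1 was last at 1.21 ± 0.41. Clec4e and Clec4n overlapped, as did Clec12a and Clec4a2. In tumor Clec4d at 491 ± 116, Clec4e at 425 ± 145, Clec4n at 337 ± 99.2 and Clec7a at 225 ± 54.6 formed a run in which each overlapped the next. Clec5a at 96.4 ± 26.2 lay below them. Olr1 at 25.7 ± 4.13, Clec12a at 19.7 ± 3.17 and Clec4a2 at 15 ± 5.47 made up the low end, again with overlap from each to the next.

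The shares of the 8 genes in their summed exon RPKM do not depend on library scaling. Clec4a2 and Clec12a took 15.7% ± 0.81 and 11.3% ± 0.83 of the sum in bone marrow, 1.94% ± 0.19 and 1.96% ± 0.16 in blood, and 0.95% ± 0.36 and 1.25% ± 0.25 in tumor (SD, n = 3). Clec4e, Clec4n, Clec5a and Olr1 had larger shares in every tumor library than in any blood library. Clec4e took 15% ± 0.98, 12.4% ± 1.18 and 25.8% ± 3.76 in bone marrow, blood and tumor, and Clec4n took 2.46% ± 0.42, 10.5% ± 1.16 and 20.5% ± 1.05. Clec5a went from 14.2% ± 1.46 to 4.03% ± 0.29 and 5.89% ± 0.54. Clec7a held 8.26% ± 0.50, 23.3% ± 2.03 and 13.9% ± 1.26, and Clec4d held 31.9% ± 2.08, 45.9% ± 1.80 and 30.2% ± 1.33. Olr1 had a share of 0.068% ± 0.019 in blood, below both the 1.15% ± 0.14 of bone marrow and the 1.60% ± 0.18 of tumor.

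**Figure D3:**
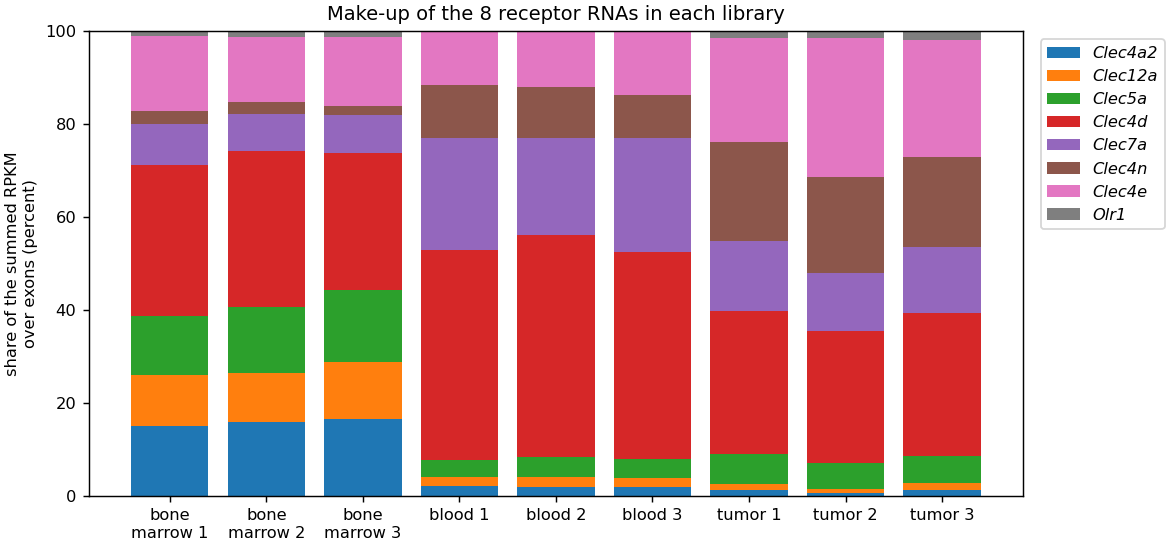
Share (percent, vertical axis) of each receptor gene in the summed exon RPKM of all 8 genes, 1 bar per library. Clec4a2 and Clec12a take 15.7% and 11.3% on average in bone marrow and under 2% each elsewhere, and Clec4e and Clec4n are widest in the tumor libraries.

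Ratios between 2 genes of one library are likewise free of the scaling. The log2 ratio of Clec4n to Clec4d, neighbors in the gene cluster, went from -3.71 ± 0.17 in bone marrow through -2.14 ± 0.14 in blood up to -0.56 ± 0.11 in tumor, with no overlap between compartments. For Clec4e to Clec4d, whose products form a complex, it was -1.09 ± 0.14, -1.89 ± 0.17 and -0.23 ± 0.27, so Mincle RNA came closest to MCL RNA in tumor. The ratio of activating Clec7a to inhibitory Clec12a was 0.73-fold in bone marrow against 11.9-fold in blood and 11.3-fold in tumor. In log2 it was 3.57 ± 0.23 in blood and 3.49 ± 0.21 in tumor, which overlapped. That of Clec4e to inhibitory Clec4a2 was 0.95-fold in bone marrow, and blood and tumor reached 6.41-fold and 28.5-fold.

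Most tested genes of the signaling route below these receptors were lower in tumor than in blood. Of 24 adaptors and signaling genes, 21 were tested. None was higher and 17 were lower, beside 28.1% and 34.5% of all tested genes, with a median log2 fold change of -1.47 against -0.17 over all tested genes. Malt1, Ptpn11, Traf6 and Rel were not called. Without Nfkb1, which passed the filter through its blood libraries alone, 16 of 20 were lower, and with plain read totals 1 was higher and 15 were lower. The summed neutrophil markers were also lower in tumor (14770 ± 1624 RPM) than in blood (33323 ± 315 RPM), and epithelial markers stood at 2404 to 5167 RPM in tumor. Their part in these falls was not tested. The largest falls were those of Plcg2, a phospholipase downstream of SYK (-2.41 ± 0.13, adjusted p = 5.36e-06), the Src family kinase Fgr (-2.36 ± 0.10, adjusted p = 2.65e-06), Card9 (-2.36 ± 0.30, adjusted p = 0.000263) and Ptpn6, which encodes SHP-1 (-2.17 ± 0.15, adjusted p = 1.47e-05). Ptpn6 serves the inhibitory receptors, whereas Card9 serves the activating ones.

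Against bone marrow 15 of the 21 were lower in tumor and 2 were higher, beside 32.9% and 22.4% of all tested genes, with a median of -1.11 against -0.21 over all, and with plain totals 11 were lower. The 2 higher ones were Traf6, an E3 ubiquitin ligase (1.16 ± 0.32, adjusted p = 0.0160), and the NF-κB subunit Rel (0.89 ± 0.23, adjusted p = 0.0108). In blood against bone marrow 8 were higher and none lower, beside 20.6% and 23.6% of all tested genes, with a median of 0.45 against -0.04 (7 of 20 higher without Nfkb1). The direct receptor partners Fcer1g, Tyrobp and Syk are added here, chosen after their values were seen. In tumor against blood Fcer1g, the partner of Clec4d, Clec4e and Clec4n, was at -1.49 ± 0.24 (adjusted p = 0.000966) and Tyrobp, the partner of Clec5a, at -1.93 ± 0.22 (adjusted p = 0.000164). Syk fell by 1.18 ± 0.20 against blood (adjusted p = 0.00128) and stood at -0.43 ± 0.20 against bone marrow (adjusted p = 0.106). The difference between Fcer1g and the receptors it serves was not tested.

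**Figure D4:**
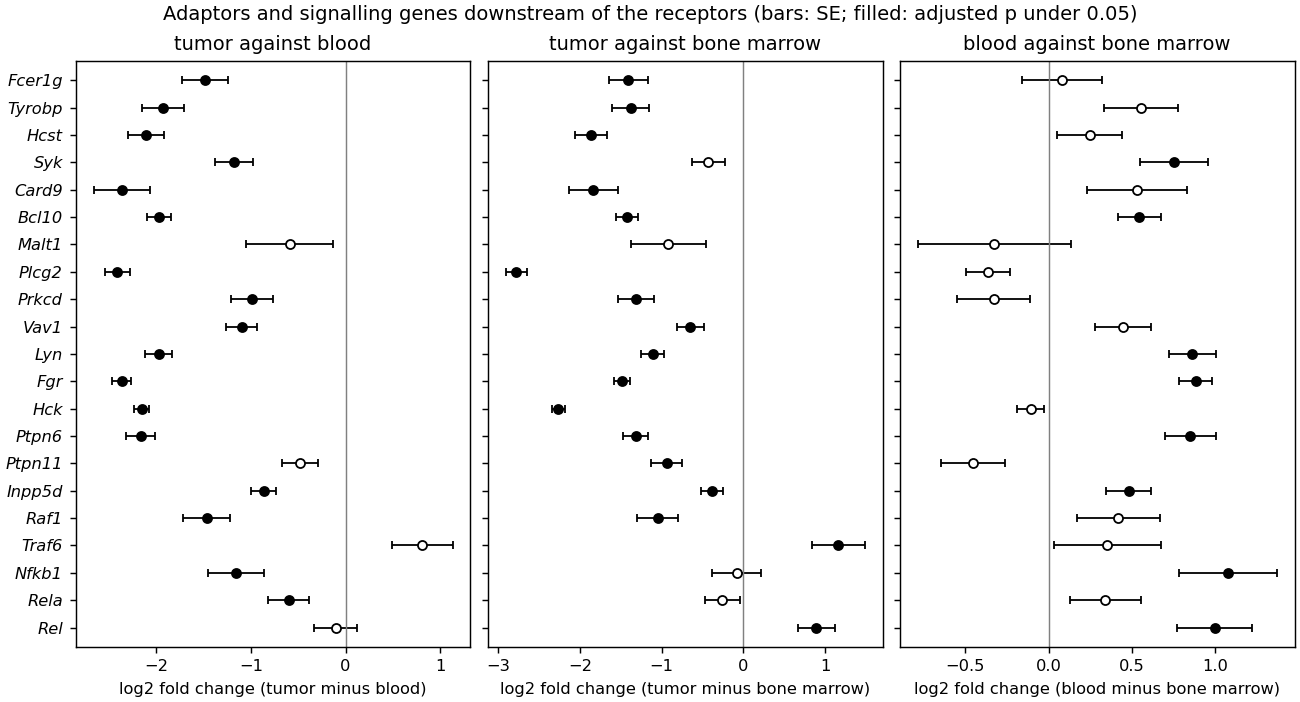
Log2 fold changes (horizontal axes) of the 21 tested adaptors and signaling genes (rows) in the 3 comparisons, with bars for the SE from limma and filled marks for an adjusted p under 0.05. In tumor against blood 17 of 21 are filled and lie left of 0.

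Of 9 cytokine genes that the CARD9 route is known to induce, 5 were tested. Il23a and Cxcl1 passed the filter through their tumor libraries alone, so that their direction was fixed by it and they are given as reads. The other 3, Cxcl2, Tnf and Il1b, were higher in tumor than in either other compartment, beside 28.1% of all tested genes called higher against blood and 22.4% against bone marrow. Cxcl2, a neutrophil chemoattractant, had 29983 to 52152 reads in tumor, 125 to 203 in blood and 545 to 807 in bone marrow (log2 fold change against blood 7.21 ± 0.30, adjusted p = 2.65e-06). Tnf rose by 4.89 ± 0.24 against blood (adjusted p = 3.90e-06), and Il1b by 1.21 ± 0.26 (adjusted p = 0.00398). Il23a had no read in bone marrow or blood and 499, 954 and 471 reads in the tumor libraries, which is at least 132-fold higher than blood and at least 178-fold higher than bone marrow with 3 reads per library as the floor. Cxcl1 had 0 to 2 reads outside the tumor and 338, 979 and 260 within it. Blood was higher than bone marrow in Il1b (3.31 ± 0.26, adjusted p = 6.86e-05) and lower in Tnf and Cxcl2. Epithelial markers (2404 to 5167 RPM in tumor, 12 to 134 in blood) and fibroblast and acinar markers were high in the same tumor libraries, and their part in the cytokine reads was not tested.

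Of 27 other genes of the C-type lectin superfamily, 10 were tested. Clec1b, Selp and Sele passed the filter through blood alone, Clec14a through tumor alone and Ly75 through bone marrow alone, which fixed the direction in which they could differ, so they are left out of the counts. Of the 5 others 2 were higher and 3 lower in tumor than in blood, beside 28.1% and 34.5% of all tested genes. Clec1b, the platelet receptor CLEC-2, had 133 to 224 reads in blood and 7 to 53 in tumor. Markers of platelets summed to 469 to 638 RPM in blood, 6.89 to 11.4 in bone marrow and 3.86 to 10.8 in tumor, and their part in this was not tested. Clec4a3, a close relative of Clec4a2, was lower in tumor, at -3.32 ± 0.24 (adjusted p = 1.57e-05). Unlike Clec4a2, Clec4a3 was higher in blood than in bone marrow (1.36 ± 0.24, adjusted p = 0.00265), and so was Clec4a1, a further relative named after its values were seen (1.26 ± 0.28, adjusted p = 0.00816). Reads of such near copies may have been assigned to one another, so the values of the Clec4a genes are uncertain to that extent.

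The 2 that were higher in tumor than in blood were the activation marker Cd69 (0.77 ± 0.24, adjusted p = 0.0209) and Cd93 (1.73 ± 0.34, adjusted p = 0.00261). Clec14a, an endothelial gene, had 34, 64 and 36 reads in tumor and 0, 2 and 0 in blood. Against bone marrow 2 of the 5 were higher in tumor and 3 lower, beside 22.4% and 32.9% of all tested genes. In blood against bone marrow 4 of the 5 were higher and none lower, beside 20.6% and 23.6%. Ly75, an endocytic receptor, had a mean of 0.98 log2 FPKM in bone marrow against -1.98 in blood and -1.99 in tumor.

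Among 15 other scavenger receptor genes 5 were tested, of which Scara3 and Cxcl16 passed the filter through their tumor libraries alone and are given as reads. Scara3 had 631, 625 and 1037 reads in tumor and 0 to 1 elsewhere. Cxcl16, a transmembrane chemokine that also binds oxidized lipoprotein, had 227, 155 and 282 reads in tumor, 7, 8 and 7 in blood and 4, 3 and 7 in bone marrow. Of the other 3 genes, none was higher and 1 was lower in tumor than in blood, beside 28.1% and 34.5% of all tested genes. This was Ager, the receptor RAGE, which fell by 2.65 ± 0.27 (adjusted p = 8.84e-05). Against bone marrow 2 of the 3 were higher in tumor and 1 was lower, beside 22.4% and 32.9%. In blood against bone marrow all 3 were higher, beside 20.6% of all tested genes called higher, whereas Olr1 was lower there.

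Genes beside the receptors on chromosome 6 were compared within 100000 bases. Around Clec4a2, Clec4n, Clec4d and Clec4e, 13 genes were annotated and listed, of which the 4 receptors alone passed the filter on low values, and the others had at most 46 reads in a library. Around Clec12a, Clec7a and Olr1 there were 18, of which 7 were tested. Besides the receptors, Cd69 and Clec1b, these were Gabarapl1, an autophagy gene that rose from bone marrow to blood (1.57 ± 0.19, adjusted p = 0.000439) and to tumor (0.60 ± 0.19 against blood, adjusted p = 0.0224), and RP23-250E1.9 with 0 to 9 reads. Clec12a, Clec7a and Olr1 lie within this stretch and each followed a different course across the compartments. Beside Clec5a, the mitochondrial gene Ssbp1 was tested, and it was lower in blood than in bone marrow (-1.15 ± 0.25, adjusted p = 0.00672). Its means were 0.48, -0.67 and -0.13 log2 FPKM in bone marrow, blood and tumor, close to the filter at 0. The filter may therefore have favored this direction.

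The genes with the most similar course to each receptor over the 9 libraries are given as a description, since the libraries share 3 compartments and any gene with the same order of compartments scores highly. Clec4a2 was closest to the lysozyme gene Lyz2 (Pearson r = 0.996), to Ly6g (0.995), whose product was used in the sort, and to B230208H11Rik (0.992). Clec12a was closest to Lyz2 (0.993), the kinase gene Rps6ka1 (0.993) and Plbd1 (0.992). Next to Clec5a stood Pycard, which encodes the inflammasome adaptor ASC (0.973), Dok2 (0.966) and Tmem2 (0.963).

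For Clec4d these were the cytokine Il15 (r = 0.992), the chemokine Ccl6 (0.989) and the interferon-induced Oas2 (0.989), and for Clec7a they were Slc26a11 (0.994), Bloc1s2-ps (0.993) and Trim30d (0.991). Clec4n was most like Ninj1 (0.996), the stress-induced transcription factor gene Ddit3 (0.994) and Siglecf (0.991). The list for Clec4e was Zfp655 (0.972), the glycogen-targeting subunit gene Ppp1r3b (0.971) and Gdap10 (0.971). Olr1 was most like Gas2l3 (0.997), the mitochondrial import pore gene Tomm40 (0.99) and Inhba, the activin A subunit (0.989). Among the 8 themselves, Clec4e and Clec4n had an r of 0.888, whereas Clec4d and Olr1 had one of -0.800.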

How the data were processed

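RNA of sorted neutrophils was measured in 9 libraries, 3 each of bone marrow, blood and tumor, grouped by their labels. Full-length cDNA was made by SMARTSeq v2. Per the paper's methods and the submitters' processing notes, the authors mapped reads to GRCm38 with STAR 2.5.2b, counted them with featureCounts 1.5.0 on GENCODE M7 (strand setting not given in the sources used here) and deposited log2 FPKM values, with edgeR 3.8.6 named in the notes. The values step in whole reads: for 46517 of 46517 genes, reads came out whole within 1e-05, with a prior of 0.25 reads and scaled library sizes. PCR duplicates were not removed by molecular identifiers.

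Genes with log2 FPKM above 0 in 3 or more libraries were fitted by limma 3.58.1 under R 4.3.3 (linear model, moderated with trend, 1 coefficient per compartment, all 9 libraries) and p-values adjusted over 7794 genes (Benjamini-Hochberg, threshold 0.05). Exact two-sided permutation tests used SciPy 1.17.1. The scripts were tested on simulated data. Levels between genes used exon lengths of GENCODE M21, which holds 46005 of the identifiers. Promoters came from RefSeq (7 of 8 genes matched).

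The 8 genes, lists and markers were chosen with earlier results of these data known. Named were the 8 genes, the 3 genes most like each, tested neighbors and, per list, up to 4 called genes with the largest change in tumor against blood and those called against the trend of their list. A gene that this rule would name is not reported here. Alternatives were other filters, pseudocounts (1, 0.1), scalings, limma-voom on reads (genes with at least 5), eBayes without trend, 2 compartments only, a replicate block and leaving out each library.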

Additional observations from a re-analysis of the deposited data

How the results depend on the processing

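Over 19 alternatives the number of the 8 genes called stayed within 1.5 times its value, a bound that a count of 7 could not pass upward. In tumor against blood the number called higher was 1 as reported, 3 with plain read totals and 0 with the stricter filter. With plain read totals 7, 7 and 8 were called in tumor against blood, tumor against bone marrow and blood against bone marrow (5, 7 and 7 as reported), without a filter 5, 5 and 6, and with the stricter filter, which dropped Olr1, 4, 6 and 7. Leaving out 1 library gave 5 to 6, 6 to 8 and 6 to 8. With the replicate block 6, 7 and 7 were called, as Clec4n then passed in tumor against blood (0.38, adjusted p = 0.0447). Deviations of libraries with the same replicate number correlated from -0.071 to 0.11, and those with different numbers from -0.098 to 0.11. With 3 libraries per compartment, such values cannot show whether libraries of the same number share mice. The main fit took all libraries as independent. Several alternatives, such as no filter, eBayes without trend, the replicate block or leaving out a library of the uninvolved compartment, could move the adjusted p but not the direction. Of 453 single values, 426 kept direction and side of the threshold, 13 passed it newly, 12 missed it and 2 changed sign. Both of the latter were Clec5a in tumor against blood, at 0.40 with plain totals and 0.24 without tumor replicate 3 (-0.21 to 0.24 over all libraries left out in turn). Without a filter, which tests many genes with few reads, Clec5a (adjusted p = 0.0737) and Olr1 (0.150) in tumor against bone marrow and Clec5a in blood against bone marrow (0.122) missed the threshold. For these, the cause was not tested. By the deposited FPKM, over genomic spans, 18 of 24 ranks of the order of levels moved, with Clec4e first in all 3 compartments. Depth limits Olr1 in blood most, with 15 to 33 reads.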

Other observations

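Several genes of the lists lay below the filter and were not tested, and their reads are given for each library. Csf2, the gene of the growth factor GM-CSF, had 14, 11 and 12 reads in tumor and none in blood or bone marrow. Il6 had 25, 15 and 36 reads in tumor, 0, 2 and 0 in blood and 5, 2 and 11 in bone marrow. Il12b had a single read in the 9 libraries. Cd36, a fatty acid and lipoprotein receptor that binds oxidized lipoprotein as LOX-1 does, had 106, 136 and 158 reads in tumor, 27, 26 and 27 in blood and 16, 14 and 0 in bone marrow. Lrp1, a large endocytic receptor, had 507, 421 and 437 reads in tumor and 60 to 120 elsewhere, and Scara5 had 45, 26 and 49 reads in tumor and none elsewhere. Epithelial, fibroblast and acinar markers were high in the same tumor libraries, and their part in these reads was not tested. Mgl2, a galactose-binding lectin known from macrophages and dendritic cells, had 27, 27 and 25 reads in bone marrow, 0, 6 and 4 in blood and 35, 31 and 20 in tumor, with the fewest in blood.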
